A study of Mus musculus with 6 samples.

Results

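The genes described here are 8 that set the activity of the PI3K-AKT pathway, chosen by name as subunits of PI3K, as negative regulators of the pathway or as the kinase AKT, out of 56748 genes listed. They are *Pik3cd*, *Pik3r1*, *Pik3r5*, *Pik3ip1*, *Inpp5d*, *Inpp4b*, *Phlpp1* and *Akt1*, and all 8 had enough counts to be tested. They were measured by RNA-seq in cultured murine CD4 T cells, as part of a study of how the glycolytic enzyme phosphoglycerate mutase, PGAM, acts on the differentiation of regulatory T cells (Tregs). Naïve CD4 cells were taken by negative selection from the spleen and lymph nodes of wild-type C57BL/6J mice aged 6 to 10 weeks, and were cultured for 3 days with the agents that polarize toward Tregs, namely antibodies to CD3 and CD28, IL-2, TGF-β, and antibodies that block IFNγ and IL-4. From the start of culture the medium also held 10 μM of an antisense oligonucleotide (ASO), a short synthetic strand that binds a matching RNA. The ASO was scrambled in 3 libraries and directed at *Pgam* in the other 3, and both groups shared everything else, the wild-type genotype included. RNA was made from unsorted cells, so each library mixes cells that became Tregs with cells that did not. The sources name 3 biological replicates per group but do not tie them to single mice, so p-values here measure the spread between these libraries.

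Total counts ran from 16231127 to 18032805 per library with the scrambled ASO and from 15860476 to 16803881 with the *Pgam* ASO. Expression is given in CPM, the counts of a gene relative to library size after scaling by edgeR's TMM method, and at these depths a floor of 3 counts, which covers counting error only, corresponds to 0.162 to 0.192 CPM. The transcripts that the ASO was directed at were examined first. *Pgam1* had 600, 478 and 707 CPM in scrambled replicates 1, 2 and 3 and 658, 661 and 707 CPM in *Pgam* replicates 1, 2 and 3. Its log2 fold change (log2FC) was 0.18 and its adjusted p 0.331, by the quasi-likelihood test of edgeR adjusted after Benjamini and Hochberg (Benjamini-Hochberg) over 14936 genes. *Pgam2*, the less abundant isoform, stood at 5.23, 6.75 and 2.85 CPM against 2.98, 2.69 and 2.60 CPM, with a log2FC of -0.84 and an edgeR adjusted p of 0.0854. Neither transcript passed the threshold of 0.05 and the groups overlapped for both, so the libraries are named below by the ASO on their labels, as scrambled and *Pgam* replicates 1 to 3. RNA counts do not show the level of PGAM protein, and 37.1% of the 31-base stretches of *Pgam1*, the unit by which Kallisto assigns reads, are shared with *Pgam1-ps2*. That gene had 749 counts over all libraries together, where *Pgam1* had 8847 to 11949 in each library. The markers of the labelled cell type were present, since all 8 genes of a CD4 T cell list were counted in every library, with *Cd4* the most abundant at a mean of 718 CPM. All 8 were lower without overlap in the *Pgam* replicates, as were 19.8% of all tested genes. Of the 8, 2 passed the test as lower, beside 9.15% of all tested genes. The number that passed was 0 without scrambled replicate 1 or *Pgam* replicate 2, and 1 without scrambled replicate 2 or *Pgam* replicate 1. It was 6 without scrambled replicate 3 and 4 without *Pgam* replicate 3. The part of this in the members' values was not tested.

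Class I PI3K is a lipid kinase that makes the membrane lipid PIP3 when the T cell receptor or CD28 is engaged. It pairs a catalytic with a regulatory subunit, and PIP3 recruits AKT, which phosphorylates FOXO transcription factors and keeps them out of the nucleus. Lipid phosphatases remove PIP3, other brakes act on PI3K or AKT themselves, and strong PI3K-AKT signalling is known to oppose the induction of *Foxp3*, the gene that defines Tregs.

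Of the 8 members, *Pik3r5* and *Phlpp1* were lower and *Akt1* was higher in the libraries labelled *Pgam* ASO, while the other 5 did not pass the test. The threshold throughout was an adjusted p of 0.05 from edgeR's quasi-likelihood test. In that test 17.2% of all tested genes passed, 8.03% as higher and 9.15% as lower, against 3 of 8 members, 1 as higher and 2 as lower. The log2FC was negative for 6 members and positive for 2, with a median of -0.24, where the median of all tested genes was -0.0061. The 3 libraries of one label lay entirely below the 3 of the other for *Pik3r1*, *Pik3r5*, *Pik3ip1* and *Phlpp1*, which makes 4 of 8 members lower without overlap against 19.8% of tested genes, and *Akt1* was the only one of the 8 that was higher without overlap, against 19.6% of tested genes. The number of genes that passed depended on single libraries. It was 2565 over all genes, fell to 391 without replicate 2 labelled *Pgam* ASO, and was 620, 871 and 1256 without scrambled replicate 1, *Pgam* replicate 1 and scrambled replicate 2. Among members the number was 3, it ranged from 2 to 5 with 1 library left out, and it was 5 without *Pgam* replicate 3.

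**Figure D1:**
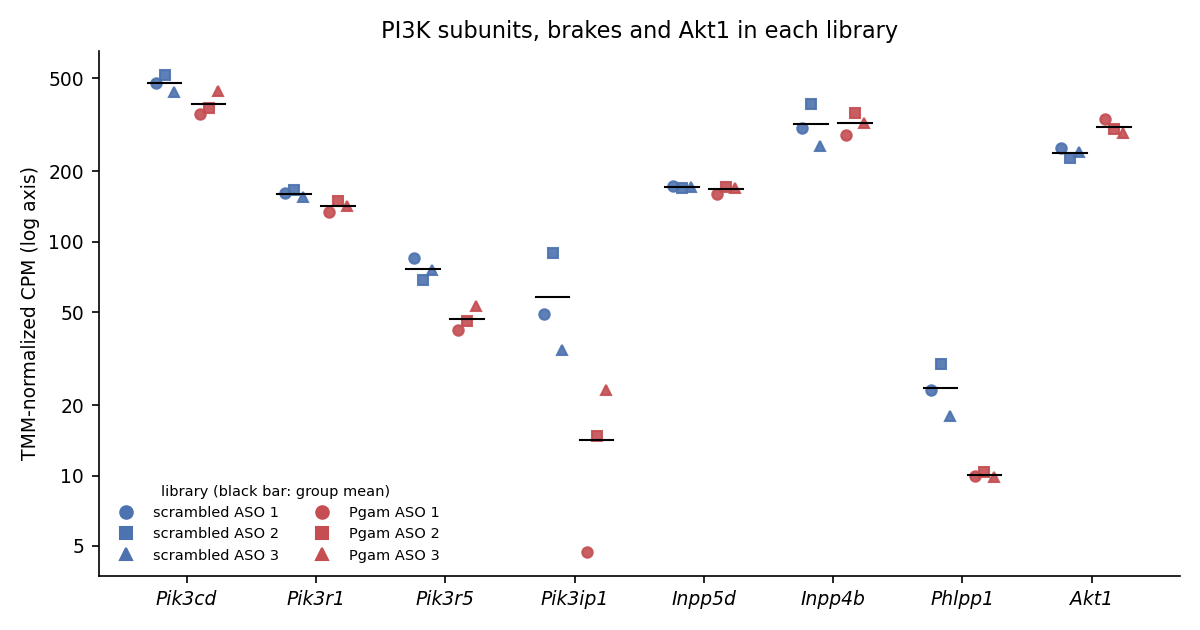
TMM-normalized CPM on a log axis for the 8 members in each of the 6 libraries, with circles, squares and triangles for replicates 1, 2 and 3 and black bars for the group means. The points of the 2 groups separate for *Pik3r1*, *Pik3r5*, *Pik3ip1*, *Phlpp1* and *Akt1*, and those of *Pik3ip1* spread most within a group, from 4.72 to 23.2 CPM among the libraries labelled *Pgam* ASO.

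*Pik3cd* (ENSMUSG00000039936) encodes p110δ, the catalytic subunit of class I PI3K that is enriched in leukocytes, and spans bases 149649168 to 149702571 of chromosome 4 (GENCODE M21, build GRCm38). Its expression was 478, 519 and 437 CPM in scrambled replicates 1, 2 and 3 and 351, 375 and 442 CPM in *Pgam* replicates 1, 2 and 3. *Pgam* replicates 1 and 2 were the lowest of the 6 libraries, but *Pgam* replicate 3 lay just above scrambled replicate 3, so the groups overlapped. The means were 478 ± 41.2 and 389 ± 47.0 CPM (SD, n = 3), a log2FC of -0.30 (standard error 0.11, edgeR adjusted p = 0.0766). The test passed without *Pgam* replicate 3 (log2FC -0.39, edgeR adjusted p = 0.0263), without scrambled replicate 3 (-0.35, edgeR adjusted p = 0.0418) and with no filter on low counts (-0.28, edgeR adjusted p = 0.0332), and over all alternatives the adjusted p ran from 0.0263 to 0.248. In a bulk library, fewer cells that express a gene and less of its RNA per cell cannot be told apart.

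Levels of different genes were compared as CPM per kb of the median protein-coding transcript. On that scale *Pik3cd* held 75.6%, 78.6% and 71.95% of the summed level of the 4 class I catalytic subunits in scrambled replicates 1, 2 and 3, and 69.8%, 69.4% and 72.6% in the *Pgam* replicates. *Pik3cg*, which encodes p110γ, followed at 22.4 ± 3.56 CPM per kb (SD, n = 3) among the scrambled replicates, against 128 ± 11.0 for *Pik3cd*. *Pik3ca*, which encodes p110α, was at 16.7 ± 0.301 CPM per kb in the same libraries, and *Pik3cb*, which encodes p110β, at 2.48 ± 0.216. *Pik3cd* was therefore the most abundant catalytic subunit in every library, and with the longest transcript in place of the median its share was nearly the same, from 69.5% to 78.6%. None of the 4 catalytic subunits passed the test.

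*Pik3r1* (ENSMUSG00000041417), on chromosome 13 from 101680563 to 101768217, encodes p85α and its shorter forms, the regulatory subunits that stabilize p110 and bring it to phosphorylated receptors. Its CPM values were 161, 166 and 155 under the scrambled label and 135, 150 and 142 under the *Pgam* label. All 3 *Pgam* values were below all 3 scrambled values, yet the gap was small. The log2FC was -0.18 (standard error 0.080, 95% interval -0.36 to 0.0015, edgeR adjusted p = 0.146), and it did not pass under any alternative. *Pik3r1* was the most abundant class I regulatory subunit, at 88.7 ± 3.01 CPM per kb (SD, n = 3) among the scrambled replicates, followed by *Pik3r2*, the gene of p85β, at 61.8 ± 5.40. With the longest transcripts these levels were 22.6 and 15.9 CPM per kb, in the same order.

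*Pik3r5* (ENSMUSG00000020901) encodes p101, the regulatory subunit that pairs with p110γ and couples it to G protein-coupled receptors, and lies on chromosome 11 from 68432121 to 68497849. It had 85.1, 68.8 and 76.0 CPM in scrambled replicates 1, 2 and 3 and 41.9, 45.6 and 53.0 CPM in *Pgam* replicates 1, 2 and 3. Every library labelled *Pgam* ASO was below every scrambled one. The gap between the nearest libraries was wider than the spread within the *Pgam* group, but narrower than that within the scrambled group. *Pik3r5* fell 1.63-fold, from 76.6 ± 8.18 to 46.9 ± 5.65 CPM (SD, n = 3), with a log2FC of -0.71 (standard error 0.11, edgeR adjusted p = 0.00532). It passed with each library left out in turn, with a log2FC between -0.80 and -0.63. *Pik3r6*, the gene of the other p110γ partner, had 5 to 21 counts per library, or 0.281 to 1.30 CPM, too few for the expression filter, and was not tested. *Pik3ap1*, an adaptor of PI3K, also fell, from 29.5 ± 3.55 to 12.6 ± 3.36 CPM (SD, n = 3), a log2FC of -1.22 (edgeR adjusted p = 0.00352).

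The region at the start of *Pik3r5* is shown because the gene fell in every left-out setting. It covers 250 bases before and 50 after the RefSeq start site on the plus strand of GRCm38.p6, at chr11:68431875-68432174, and capitals mark matches to the GC box letters GGGCGG or their reverse complement.
Pik3r5: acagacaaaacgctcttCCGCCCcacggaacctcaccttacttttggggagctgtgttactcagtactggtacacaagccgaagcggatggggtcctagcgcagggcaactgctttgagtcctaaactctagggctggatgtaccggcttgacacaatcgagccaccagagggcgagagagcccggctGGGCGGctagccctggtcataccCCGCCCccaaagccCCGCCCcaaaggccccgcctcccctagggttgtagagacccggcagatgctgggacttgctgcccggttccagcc
The GC box letters occur 4 times in this window, while 35.7% of all 32851 RefSeq promoters of the same length hold them at least once.

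*Pik3ip1* (ENSMUSG00000034614) encodes a membrane protein that binds p110 and inhibits PI3K, and lies on chromosome 11 from 3330401 to 3342971. Its expression was 49.3, 89.8 and 34.3 CPM in scrambled replicates 1, 2 and 3 and 4.72, 14.8 and 23.2 CPM in *Pgam* replicates 1, 2 and 3. The groups did not overlap, but both were wide, and *Pgam* replicate 1 alone had 76 counts where *Pgam* replicate 3 had 392. The means of 57.8 ± 28.7 and 14.2 ± 9.25 CPM (SD, n = 3) gave a log2FC of -2.02 (standard error 0.62, 95% interval -3.54 to -0.49), the largest of the 8 members, and an edgeR adjusted p of 0.0759, which did not pass. An exact two-sided permutation test of log2 CPM gave p = 0.1, the smallest that 3 libraries against 3 allow. *Pik3ip1* passed with DESeq2 (log2FC -2.00, adjusted p = 0.0301), with at least 10 counts in every library (-2.03, edgeR adjusted p = 0.0464) and without *Pgam* replicate 3 (-2.56, edgeR adjusted p = 0.0399), and over all alternatives the adjusted p ran from 0.0301 to 0.274. An exon of *Pik3ip1* overlaps *Gm12592* on the opposite strand, which had 11 to 27 counts per library, and 1.42% of the 31-base stretches of *Pik3ip1* were shared with it.

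The *Pik3ip1* window is shown beside that of *Pik3r5* because it has no capitals. None of the 4 motifs searched occurs in it, which says only that these letters are not in chr11:3330481-3330780, on the plus strand, a window that lies within the GENCODE M21 gene.
Pik3ip1: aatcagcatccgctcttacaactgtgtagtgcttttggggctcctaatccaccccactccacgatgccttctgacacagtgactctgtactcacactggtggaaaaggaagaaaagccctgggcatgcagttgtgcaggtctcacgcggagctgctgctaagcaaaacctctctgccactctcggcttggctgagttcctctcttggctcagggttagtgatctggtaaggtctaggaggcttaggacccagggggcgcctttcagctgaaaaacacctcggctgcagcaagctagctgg
The motifs were GTAAACA, bound by FOXO factors, CCGGAAG for ETS factors, the E-box CACGTG and the GC box GGGCGG, each read on both strands.

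**Figure D2:**
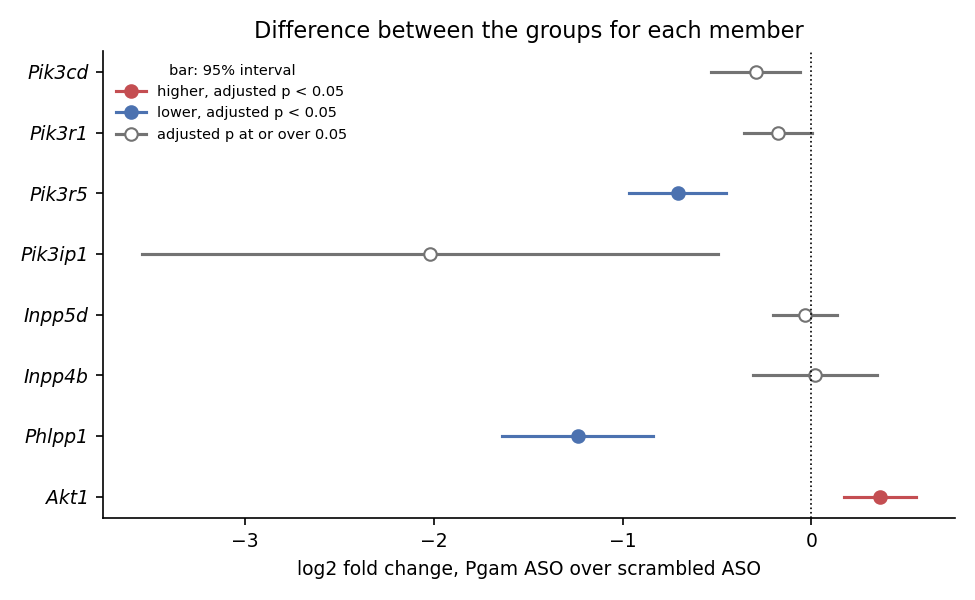
Log2FC of the libraries labelled *Pgam* ASO over those labelled scrambled ASO for each member, with 95% intervals from edgeR's fit and filled points where the adjusted p was under 0.05. *Pik3ip1* has the largest difference and the widest interval, from -3.54 to -0.49, while the interval of *Inpp5d* runs from -0.20 to 0.13.

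*Inpp5d* (ENSMUSG00000026288) encodes SHIP1, the phosphatase of blood cells that converts PIP3 to a lipid with one phosphate fewer, and lies on chromosome 1 from 87620312 to 87720507. It stood at 173, 170 and 172 CPM in scrambled replicates 1, 2 and 3 and at 160, 172 and 170 CPM in *Pgam* replicates 1, 2 and 3. These were the steadiest values of the 8 members, and the groups overlapped. The log2FC was -0.04 with a 95% interval from -0.20 to 0.13 (edgeR adjusted p = 0.775), which leaves room for a change of at most 0.20 on the log2 scale in the downward direction at that confidence. *Inppl1*, the gene of the related SHIP2, was less abundant per length, at 11.3 ± 1.20 CPM per kb (SD, n = 3) against 43.6 ± 0.456 for *Inpp5d* in the libraries labelled scrambled ASO.

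*Inpp4b* (ENSMUSG00000037940), on chromosome 8 from 81342556 to 82127914, encodes a phosphatase that acts on the lipid that SHIP1 produces. Its CPM values were 307, 390 and 256 with the scrambled label and 286, 357 and 323 with the *Pgam* label. Replicate 2 was the highest library within each label, and the groups overlapped almost fully. The log2FC of 0.02 (standard error 0.15, edgeR adjusted p = 0.941) turned to -0.02 when only library size was used for scaling, and to as low as -0.11 with a library left out, so *Inpp4b* is given no direction. *Inpp4a*, its paralog, was at 15.0 ± 2.18 CPM per kb (SD, n = 3) in the scrambled group against 77.6 ± 16.5 for *Inpp4b*.

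The other lipid phosphatases were read from a list of 9 genes that also holds *Inpp5d*, *Inpp4b* and *Pik3ip1*. Of its 8 tested genes, 2 were lower and 0 higher in edgeR's test, beside 17.2% of all tested genes that passed in either direction. This number rested on single libraries and settings. It was 0 without scrambled replicate 1 or *Pgam* replicate 2, and 1 without scrambled replicate 2 or *Pgam* replicate 1. It was 3 without *Pgam* replicate 3, and 4 with DESeq2 or with at least 10 counts in every library, all lower. Without scrambled replicate 3 it was 4, of which 3 were lower and 1 was higher. *Inpp5k*, which can act on PIP3, fell with a log2FC of -0.62 (standard error 0.15, edgeR adjusted p = 0.0218). It did not pass without scrambled replicates 1 or 2 or *Pgam* replicates 1 or 2, each left out alone, where the edgeR adjusted p was 0.0703, 0.0525, 0.0730 and 0.111.

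*Phlpp1* (ENSMUSG00000044340) encodes a protein phosphatase that removes an activating phosphate from AKT, and lies on chromosome 1 from 106171752 to 106394250. It had 23.3, 29.9 and 17.9 CPM in scrambled replicates 1, 2 and 3 and 9.94, 10.3 and 9.88 CPM in *Pgam* replicates 1, 2 and 3. The *Pgam* libraries were nearly equal and all below the lowest scrambled library. *Phlpp1* fell 2.36-fold, from 23.7 ± 5.99 to 10.05 ± 0.244 CPM (SD, n = 3), a log2FC of -1.24 (standard error 0.18, edgeR adjusted p = 0.00324). It kept passing whichever library was left out, between -1.40 and -1.04, with a highest edgeR adjusted p of 0.0294. Per length *Phlpp1* was the least abundant of the 8 members, at 3.80 ± 0.962 CPM per kb in the scrambled group and 1.61 ± 0.0392 in the *Pgam* group (SD, n = 3). Its paralog *Phlpp2* had 20.3, 18.0 and 19.1 CPM against 24.3, 26.1 and 21.1 CPM, higher without overlap but not past the test (log2FC 0.31, edgeR adjusted p = 0.0956).

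The *Phlpp1* start region is shown as that of the member with the lowest adjusted p. Its RefSeq window lies on the plus strand at chr1:106171619-106171918, and the GENCODE M21 gene begins inside it.
Phlpp1: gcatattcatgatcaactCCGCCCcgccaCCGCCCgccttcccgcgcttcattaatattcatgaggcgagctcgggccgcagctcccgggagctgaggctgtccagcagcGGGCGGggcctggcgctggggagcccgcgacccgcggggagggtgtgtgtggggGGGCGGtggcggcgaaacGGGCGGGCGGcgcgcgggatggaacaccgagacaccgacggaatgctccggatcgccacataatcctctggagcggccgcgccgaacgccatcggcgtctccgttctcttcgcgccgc
The GC box letters occur 6 times, more than in any other window of the 8 members, with the last pair overlapping, and 70.7% of the bases are G or C against 62.0% in the *Pik3r5* window and 54.7% in that of *Pik3ip1*.

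*Akt1* (ENSMUSG00000001729) encodes the kinase AKT1, on which the pathway converges, and lies on chromosome 12 from 112653821 to 112674884. It stood at 253, 228 and 242 CPM in scrambled replicates 1, 2 and 3 and at 334, 302 and 292 CPM in *Pgam* replicates 1, 2 and 3. Every library labelled *Pgam* ASO was above every scrambled one, with *Pgam* replicate 1 the highest. *Akt1* rose 1.29-fold, from 241 ± 12.2 to 310 ± 22.0 CPM (SD, n = 3), a log2FC of 0.36 (standard error 0.086, 95% interval 0.17 to 0.55, edgeR adjusted p = 0.0225). With a block for replicate number *Akt1* stayed at 0.36 but did not pass (edgeR adjusted p = 0.0586). It passed in 3 of the 6 settings with a library left out. Without scrambled replicate 1, *Pgam* replicate 1 and *Pgam* replicate 2 the log2FC was 0.39, 0.31 and 0.38 (edgeR adjusted p = 0.0733, 0.0835 and 0.0927).

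Per length *Akt1* was more abundant than its paralog *Akt2*, at 219 ± 11.0 CPM per kb in the scrambled group and 281 ± 19.98 in the *Pgam* group (SD, n = 3). *Akt2* was at 138 ± 9.11 and 156 ± 8.10 CPM per kb. With the longest transcripts the scrambled levels were 89.5 CPM per kb for *Akt1* and 34.2 for *Akt2*, in the same order. *Akt2* did not pass the test (log2FC 0.18, edgeR adjusted p = 0.171), although its groups did not overlap.

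RefSeq gives *Akt1* 2 start sites, and the window at the upstream one is shown because it held the only FOXO match among the 12 windows of the 8 members. It lies on the minus strand at chr12:112674835-112675134, and capitals mark TGTTTAC, the reverse complement of GTAAACA, at position -161 from the start site.
Akt1: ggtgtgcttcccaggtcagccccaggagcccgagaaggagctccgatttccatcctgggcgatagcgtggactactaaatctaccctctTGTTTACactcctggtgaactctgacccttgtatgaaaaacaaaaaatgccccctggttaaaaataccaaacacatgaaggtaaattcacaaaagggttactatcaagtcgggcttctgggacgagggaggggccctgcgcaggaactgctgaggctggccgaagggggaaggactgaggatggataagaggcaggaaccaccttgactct
Of all RefSeq promoters 3.65% hold the FOXO letters, 8.86% the ETS letters and 7.15% the E-box letters, and the last 2 motifs had 0 matches in the 12 windows. The GC box letters occurred in 7 of the 12 windows, among them the downstream *Akt1* window with 5. A match is a description of the sequence and was not tested as a site in these cells.

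Across the 8 members, levels per length in the scrambled group ran from *Akt1* at 219 ± 11.0 CPM per kb and *Pik3cd* at 128 ± 11.0, through *Pik3r1* at 88.7 ± 3.01, *Inpp4b* at 77.6 ± 16.5, *Pik3ip1* at 62.8 ± 31.2 and *Inpp5d* at 43.6 ± 0.456, to *Pik3r5* at 17.5 ± 1.87 and *Phlpp1* at 3.80 ± 0.962 (SD, n = 3). The neighbours *Pik3r1* and *Inpp4b*, *Inpp4b* and *Pik3ip1*, and *Pik3ip1* and *Inpp5d* did not differ beyond the spread of their libraries. The first 6 places of this order rest on the transcript length chosen. With the longest transcript they were held by *Pik3cd* at 97.1 CPM per kb, *Akt1* at 89.5, *Inpp4b* at 39.4, *Inpp5d* at 34.8, *Pik3r1* at 22.6 and *Pik3ip1* at 22.5, while *Pik3r5* and *Phlpp1* stayed last. In the *Pgam* group *Pik3ip1*, at 15.5 ± 10.06 CPM per kb, stood below *Inpp5d*, at 42.5 ± 1.60, in every library.

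**Figure D3:**
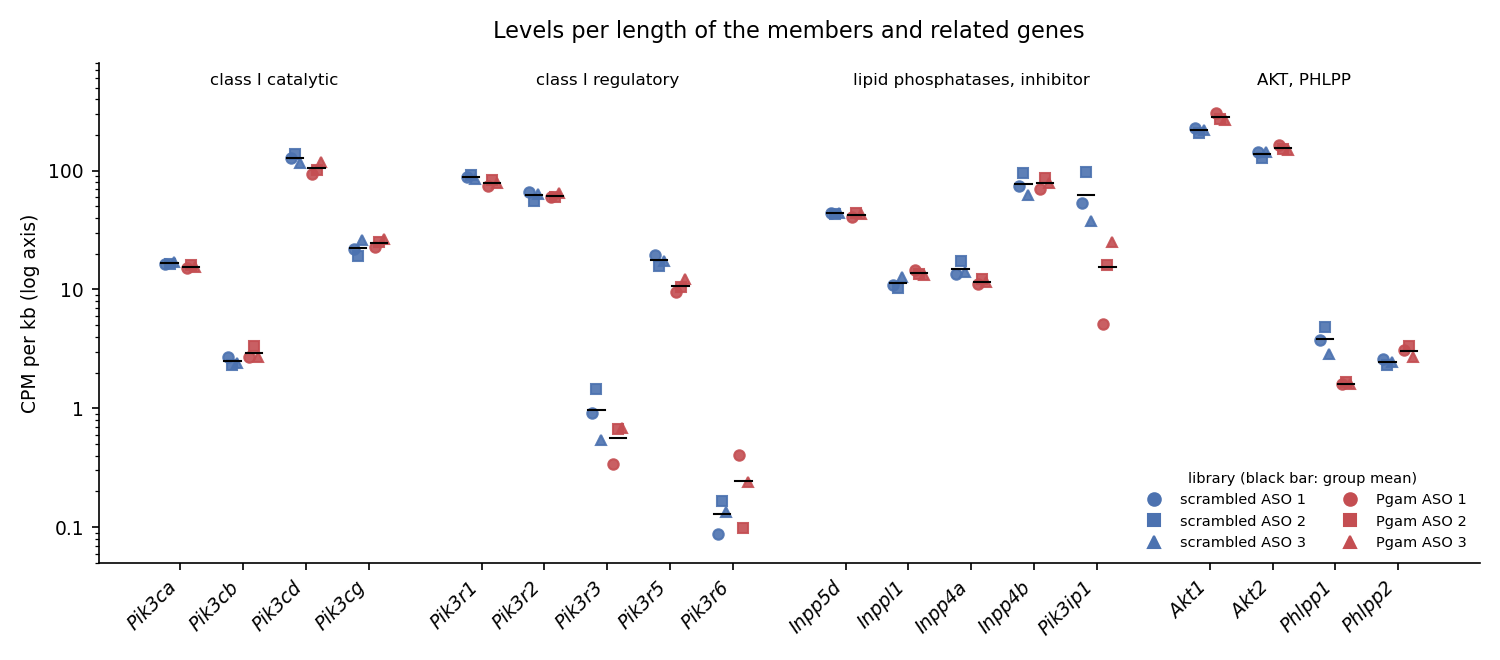
CPM per kb of median protein-coding transcript on a log axis for the members and related genes in each library, with black bars for the group means. *Pik3cd*, *Pik3r1*, *Inpp5d*, *Inpp4b* and *Akt1* are each above their paralogs, while *Phlpp1* lies above *Phlpp2* in the scrambled libraries, at means of 3.80 and 2.44 CPM per kb, and below it in the *Pgam* libraries, at 1.61 and 3.04.

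Ratios between genes within a library do not depend on the scaling between libraries, and 8 pairs were compared after their values had been seen, paralogs except for *Pik3r5* and *Pik3r1*, which share only the role of regulatory subunit. The log2 ratio of *Phlpp1* to *Phlpp2* CPM was 0.20, 0.73 and -0.097 in scrambled replicates 1, 2 and 3 and -1.29, -1.34 and -1.09 in *Pgam* replicates 1, 2 and 3, a difference in means of -1.52. That was the widest of the 8 pairs. The mean ratio of *Pik3r5* to *Pik3r1* differed by -0.53, from -1.07 ± 0.18 to -1.61 ± 0.16 (SD, n = 3), and *Pik3cd* to *Pik3cg* by -0.45, from 2.21 ± 0.35 to 1.76 ± 0.074. The difference was 0.18 for *Akt1* to *Akt2*, 0.40 for *Inpp4b* to *Inpp4a* and -0.33 for *Inpp5d* to *Inppl1*. In 7 of the 8 pairs the groups did not overlap, which gives an exact two-sided permutation p of 0.1, the smallest possible, and 0.114 after Benjamini-Hochberg adjustment over the 8 pairs, while *Pik3cd* to *Pik3ca* overlapped (difference -0.20, exact permutation p = 0.2). No pair could therefore pass 0.05 by design, and none of these differences is called a change.

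The rest of the pathway was read from lists of 71 further genes, of which 68 were tested. In edgeR's test 18 of these 68 were lower and 1 was higher, or 27.9% in all beside 17.2% of tested genes, and their median log2FC was -0.11. The number that passed was 5 without *Pgam* replicate 2, 7 without scrambled replicate 1 and 12 without scrambled replicate 2. Of the 11 tested genes listed as brakes on AKT, *Phlpp1* among them, 2 fell and 0 rose, or 18.2% beside 17.2% of all tested genes. A positive log2FC was found for 7 of the 11, and the median was 0.12. Of these 7, 4 were higher without overlap, as were 19.6% of all tested genes. The split depended on the setting, since 3 brakes were higher with DESeq2, with no filter on low counts or without *Pgam* replicate 3, and 2 without scrambled replicate 3. Only 1 brake passed, as lower, without scrambled replicates 1 or 2 or *Pgam* replicates 1 or 2, each left out alone. *Trib2*, the other gene of this list that fell, encodes a pseudokinase that binds AKT, and its effect on AKT was not measured here. It had 42.7, 71.7 and 22.4 CPM in the scrambled replicates and 2.61, 7.44 and 11.8 CPM in the *Pgam* replicates (log2FC -2.64, edgeR adjusted p = 0.0432). It did not pass without scrambled replicates 1 or 2 or *Pgam* replicates 1 or 2, each left out alone, where the edgeR adjusted p was 0.115, 0.151, 0.0886 and 0.131. *Cblb*, a ubiquitin ligase that restrains signalling through CD28 and PI3K, fell by 1.08 on the log2 scale (edgeR adjusted p = 0.00188). *Cd28* itself, the receptor upstream of p110δ, fell from 434, 470 and 397 CPM to 271, 279 and 272 CPM (log2FC -0.66, edgeR adjusted p = 0.00183). Of the 13 PIP3-binding effectors 4 were lower, beside 9.15% of all tested genes. The number of lower effectors was 1 without scrambled replicate 1 or *Pgam* replicate 2, 2 without *Pgam* replicate 1 and 6 without *Pgam* replicate 3. One effector, the kinase gene *Tec*, rose by 0.66 (edgeR adjusted p = 0.0200), which no longer passed without scrambled replicate 1 (0.61, edgeR adjusted p = 0.0817) or *Pgam* replicate 2 (0.63, edgeR adjusted p = 0.0967).

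In the list of 10 AKT kinases and their activators 30.0% of the genes passed, against 17.2% of all tested genes. Beside *Akt1*, 2 other genes of the list passed, both lower. They were *Rictor*, a component of the mTORC2 complex that phosphorylates AKT (log2FC -0.69, edgeR adjusted p = 0.0214), and *Prr5l*, which binds that complex (-0.92, edgeR adjusted p = 0.0132). *Rictor* did not pass without scrambled replicate 1, scrambled replicate 2 or *Pgam* replicate 2 (edgeR adjusted p = 0.0705, 0.0807 and 0.0913), nor *Prr5l* without *Pgam* replicate 2 (edgeR adjusted p = 0.0812). Among 10 AKT substrates 4 were lower and 0 were higher, beside 9.15% and 8.03% of all tested genes. The number of substrates that passed was 1 without *Pgam* replicate 2 and 2 without scrambled replicate 1, scrambled replicate 2 or *Pgam* replicate 1. *Foxo1*, the FOXO factor that AKT restrains in T cells, had 167, 220 and 135 CPM in the scrambled replicates and 93.4, 94.3 and 105 CPM in the *Pgam* replicates (log2FC -0.84, edgeR adjusted p = 0.0114), and passed unless *Pgam* replicate 2 was left out (-0.81, edgeR adjusted p = 0.0681). *Pik3ap1*, *Tbc1d4*, *Cd28*, *Cblb* and *Plekha1* were the pathway genes beyond the members that passed with each library left out in turn.

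**Figure D4:**
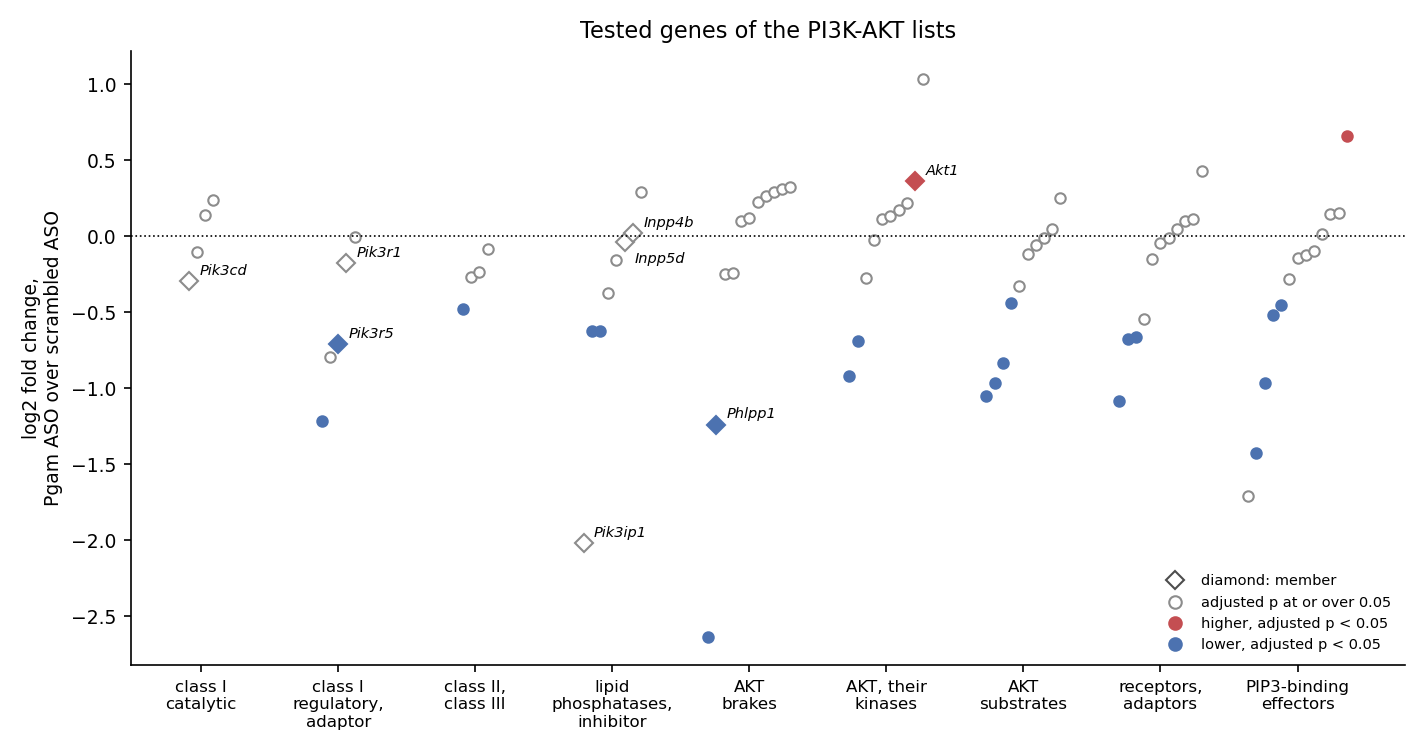
Log2FC of the libraries labelled *Pgam* ASO over those labelled scrambled ASO for every tested gene of the PI3K-AKT lists, one column per list, with diamonds for the 8 members and filled points where the edgeR adjusted p was under 0.05. Most filled points lie below 0, and *Akt1* and *Tec* are the filled points above it.

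The order of the 6 libraries was not the same for every member. *Pik3ip1* was highest in scrambled replicate 2, followed by scrambled replicates 1 and 3 and then *Pgam* replicates 3, 2 and 1, and the same order held for *Trib2*, *Foxo1*, *Bcl6* and *Sesn1*. *Phlpp1* shared the order of the scrambled replicates but was lowest in *Pgam* replicate 3. *Pik3r5* and *Inpp5d* were highest in scrambled replicate 1 and lowest in *Pgam* replicate 1, though *Inpp5d* spanned a far narrower range, and *Akt1* ran from *Pgam* replicate 1 at the top to scrambled replicate 2 at the bottom. *Inpp4b* was highest in scrambled replicate 2 and lowest in scrambled replicate 3.

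Many genes that mark naïve T cells were lower in the libraries labelled *Pgam* ASO, as were the members *Pik3r5* and *Phlpp1*. Of a list of 13 such genes 8 were lower and 0 higher in edgeR's test. Of all tested genes 9.15% were lower and 8.03% higher. The list had a summed level of 3423, 4304 and 2995 CPM in scrambled replicates 1, 2 and 3 and 1396, 1562 and 1950 CPM in *Pgam* replicates 1, 2 and 3. Its most abundant gene was *Ccr7*, at a mean of 533 CPM, and 0 of the 13 were at 0 in every library. Of 13 known targets of FOXO1, a list that shares 5 genes with the naïve one, 10 were lower and 0 higher, beside the same shares of all tested genes. The median log2FC of these targets was -1.25. *Ccr7*, which encodes a receptor that guides cells to lymph nodes, had 802, 819 and 888 CPM against 202, 212 and 273 CPM (log2FC -1.87, edgeR adjusted p = 9.3e-05). Without scrambled replicate 1, *Pgam* replicate 1 and *Pgam* replicate 2, the number that passed was 4, 4 and 3 in the naïve list and 4, 5 and 2 in the FOXO1 list. The part of these cell states in the values of *Pik3ip1*, *Pik3r5* and *Phlpp1* was not tested.

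Other features of the libraries also differed by label. The share of counts from mitochondrial genes was 1.95%, 2.12% and 1.93% in the scrambled replicates and 1.24%, 1.44% and 1.32% in the *Pgam* replicates, and its part in the members' values was not tested. Marker lists of other cells summed to levels below that of *Pik3cd*, at 351 CPM or more, and some markers differed by label. Depending on the list and library, these sums lay below, within or above the range of *Phlpp1*, at 9.88 to 29.9 CPM. A list of 7 B cell markers summed to between 7.50 and 12.3 CPM and 9 myeloid markers to between 8.79 and 11.1 CPM, and none of these genes passed the test. Both CD8 T cell markers together had 11.3, 13.5 and 10.8 CPM in the scrambled replicates and 14.6, 10.9 and 15.7 CPM in the *Pgam* replicates, of which the less abundant, *Cd8a*, was higher (log2FC 1.12, edgeR adjusted p = 0.0286). The more abundant, *Cd8b1*, had a negative log2FC and did not pass (-0.20, edgeR adjusted p = 0.454). The 5 NK cell markers summed to 52.7, 32.7 and 55.1 CPM against 28.4, 27.1 and 24.4 CPM, nearly all of it from *Eomes*, which T cells can express and which was lower (log2FC -0.82, edgeR adjusted p = 0.0214), while the NK markers *Klrb1c* and *Klra8* were at 0 in every library. The 6 mast cell and basophil markers summed to 1.69, 2.38 and 2.17 CPM against 6.71, 5.13 and 3.96 CPM, with *Cpa3* the most abundant at a mean of 1.69 CPM and *Gata2* higher (log2FC 1.59, edgeR adjusted p = 0.0469). *Cd8a* no longer passed without scrambled replicate 1 or *Pgam* replicate 1 (edgeR adjusted p = 0.0989 and 0.1004), nor *Eomes* without scrambled replicate 1, *Pgam* replicate 1 or *Pgam* replicate 2 (edgeR adjusted p = 0.0766, 0.0530 and 0.0893). *Gata2* passed only when all libraries were used or *Pgam* replicate 3 was left out, and without scrambled replicates 1, 2 and 3 and *Pgam* replicates 1 and 2 its edgeR adjusted p was 0.120, 0.123, 0.0643, 0.221 and 0.101. The part of other cells in the members' values was not tested.

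Genes that mark Tregs differed by label as well, beside the members *Pik3r5*, *Phlpp1* and *Akt1*. Of 6 such genes 2 were lower and 1 higher in edgeR's test, beside 9.15% of all tested genes that were lower and 8.03% that were higher. The 6 genes had a summed level of 3041, 2899 and 3341 CPM in the scrambled replicates and 3729, 3758 and 3388 CPM in the *Pgam* replicates. Most of it came from *Il2ra* at a mean of 2349 CPM, and 0 of the 6 were at 0 in every library. *Foxp3* had 282, 371 and 222 CPM against 89.7, 109 and 131 CPM (log2FC -1.41, edgeR adjusted p = 0.00567) and was lower whichever library was left out. The number that passed was 1 without scrambled replicate 1, *Pgam* replicate 1 or *Pgam* replicate 2, in place of 3. The part of this in the values of the 8 members was not tested.

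**Figure D5:**
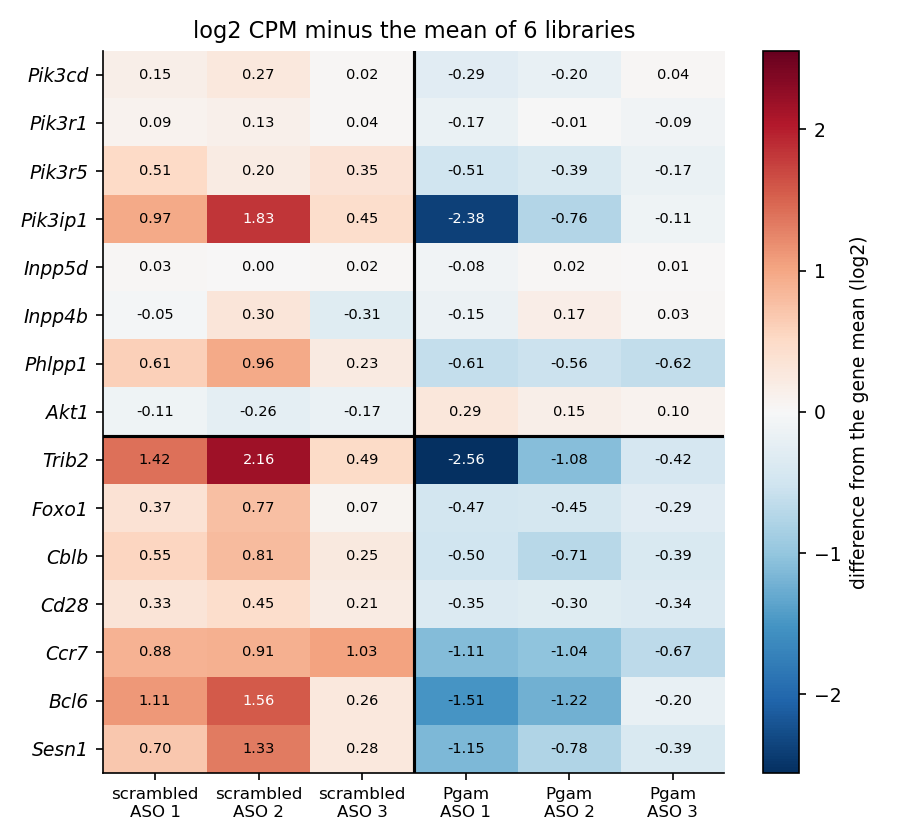
Difference of each library's log2 CPM from the gene's mean over the 6 libraries, in log2 units, for the 8 members above the horizontal line and for 7 genes named in the text under it. *Pik3ip1* spans 1.83 in scrambled replicate 2 to -2.38 in *Pgam* replicate 1, close to the span of *Trib2*, while *Inpp5d* runs from 0.03 to -0.08.

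For each member, the genes with the most similar profile were found by the root mean square difference of mean-centred log2 CPM over the 6 libraries, among 9507 genes with a mean log2 CPM of at least 3. The nearest to *Pik3ip1* was *Tmem71*, at 0.125, with 57.5, 95.5 and 33.6 CPM in the scrambled replicates and 4.41, 14.4 and 20.8 CPM in the *Pgam* replicates, followed by *Pglyrp1* at 0.222. *Phlpp1* was nearest to *Btg1*, at 0.0925, and to *St8sia1*, at 0.112. *Pik3r5* was nearest to *Cd69*, the gene of an early activation marker, at 0.0660, and *Akt1* to *Zc3h18*, at 0.0228. The profiles of *Pik3cd* and *Gtpbp2* differed by 0.0125, those of *Pik3r1* and *Dmxl1* by 0.0180, those of *Inpp5d* and *Adpgk* by 0.0126 and those of *Inpp4b* and *Scrn3* by 0.0431. A small value is easier to reach for a gene that varies little, such as *Inpp5d*, than for one that varies as much as *Pik3ip1*.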

How the data were processed

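The counts are estimated counts per gene, made by the authors with Kallisto against GRCm38 and deposited as whole numbers without normalization, with the Kallisto version and annotation release not given in the sources used here. All 6 libraries were used, 3 per group, with 15860476 to 18032805 counts each. A floor of 3 counts was set for counting error alone. No batch is given, and no pair of libraries was close enough in counts to be copies of one library. Of 56748 genes listed, 28236 were at 0 in every library and 14936 passed the expression filter of edgeR, and p-values were adjusted over these by the Benjamini-Hochberg method.

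Libraries were scaled by TMM and compared, *Pgam* ASO over scrambled ASO, by the robust quasi-likelihood test of edgeR 4.0.16 in R 4.3.3 at an adjusted p under 0.05, and a gene that passed was called higher or lower. The replicates are not tied to separate mice in the labels, so p-values measure the spread between these libraries. A single value with few libraries was compared by exact permutation of log2 CPM, two-sided. The alternatives were DESeq2 1.42.0, limma 3.58.1 with voom, RLE scaling, library size alone, no filter, at least 10 counts in every library, a block for replicate number, an adjusted p under 0.01, the longest transcript for levels, and leaving out each library. The pairs of related genes, and the alternatives for them and for named genes beyond the members, were chosen after the values were seen. The calling was also tested on simulated data.

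The members and gene lists were chosen with earlier results of these data known. Genes named are the members, the targets, up to 4 genes per list that passed with the largest log2 fold change, paralogs needed to read a level, the genes most alike to each member, the most abundant gene of a marker list and a gene whose exon overlaps a member. Levels per length used the median protein-coding transcript in GENCODE M21. Likeness used log2 CPM with a prior count of 2. Start regions were taken from RefSeq. Tables were handled in Python 3.11.15 with pandas 2.3.3, numpy 2.4.6 and scipy 1.17.1. No protein sequence is shown, because none was at hand.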

Additional observations from a re-analysis of the deposited data

How the results depend on the processing

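With a block for replicate number, 1235 genes passed in place of 2565, and *Akt1* stayed at 0.36 but no longer passed (edgeR adjusted p = 0.0586). Profiles of equal replicate numbers did not resemble each other across the groups (r = 0.0534, -0.034 and -0.237), so the numbers were not used as pairs. With the edgeR threshold at 0.01, 453 genes and 5 further pathway genes passed, and *Akt1* at 0.36 did not. *Pik3cd* passed with no filter on low counts, at -0.28, and *Pik3ip1* with DESeq2, at -2.00, and with at least 10 counts in every library, at -2.03. With library size alone *Inpp4b* turned to -0.0186. With each library left out in turn, the genes that passed ranged from 391 to 3484, the members from 2 to 5 and the further pathway genes from 5 to 27. The log2 fold change then ran from -0.39 to -0.22 for *Pik3cd*, from -2.56 to -1.55 for *Pik3ip1*, from -0.11 to 0.19 for *Inpp4b*, where it was -0.01 without scrambled replicate 1, -0.11 without scrambled replicate 3 and -0.06 without *Pgam* replicate 2, and from 0.31 to 0.41 for *Akt1*. The cause of these shifts was not tested. The directions of *Pik3r5* and *Phlpp1* and their place past 0.05 held in all 14 alternatives. The cells were not sorted, so a level per Treg cannot be read from these libraries.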

Other observations

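Among 10 genes that mark activated T cells, 3 were higher in the libraries labelled *Pgam* ASO by edgeR's test, *Il2ra* (log2 fold change 0.52, edgeR adjusted p = 0.0185), *Tfrc* (0.49, edgeR adjusted p = 0.0460) and *Cd44* (0.38, edgeR adjusted p = 0.0390), and 1 was lower, *Cd69* (-0.72, edgeR adjusted p = 0.00639). Of all tested genes 8.03% were higher and 9.15% lower. Only *Cd69* passed without scrambled replicate 1, *Pgam* replicate 1 or *Pgam* replicate 2, where *Il2ra* had an edgeR adjusted p of 0.0725, 0.0639 and 0.0967. *Cd44* passed with 1 of the 6 libraries left out, *Pgam* replicate 3 (edgeR adjusted p = 0.0127), and *Tfrc* with another, scrambled replicate 3 (edgeR adjusted p = 0.00686). The 10 genes summed to 6116, 5102 and 6769 CPM in the scrambled replicates and to 7214, 7383 and 6621 CPM in the *Pgam* replicates. The 8 CD4 T cell markers summed to 2950, 3293 and 2745 CPM against 2315, 2453 and 2530 CPM. All 8 were lower without overlap, as were 19.8% of all tested genes.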
